A study of Mus musculus with 4 samples.

Results

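The histone cluster genes are the genes whose symbols begin with Hist1h, Hist2h, Hist3h or Hist4h, and 67 of the 32285 genes in the deposited matrices met that rule. The rule reads symbols only. On GRCm38 (mm10), GENCODE places 54 of them on chromosome 13, 10 on chromosome 3, 2 on chromosome 11 and 1 on chromosome 6. The data were 4 single-cell 3' RNA libraries from C57BL/6 mice, 1 per group, made from the hemisphere opposite the injection. The young mice were 8 weeks old and the old mice 93 weeks old. Tumour animals had received 1000 CT2A-GFP-luc cells, a mouse glioblastoma line that carries GFP and luciferase, and sham animals had received PBS. All were sampled 2 weeks later, and the cells of all 4 libraries went through the same enzymatic adult brain dissociation kit. The number of animals behind each library is not given in the sources used here.

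Core histones H2A, H2B, H3 and H4 form the octamer around which DNA is wound, and linker histone H1 binds where DNA enters and leaves it. Most genes of the clusters are known as replication-dependent: they are transcribed in S phase, have no introns, and end their mRNA in a conserved stem-loop that binds SLBP in place of a poly-A tail. Some cluster members are also known to give poly-A transcripts in cells that have left the cycle, and the library kit used here primes on poly-A. A count was a UMI, a molecular tag that marks 1 captured RNA molecule. Tags come from the 3' end of a transcript, so levels were not divided by gene length.

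A stem-loop was found in most members, and the following examples come from genes of high and low counts. The search fixed the base at most of the 16 positions, so the likeness of these forms was largely set in advance. Any other form was counted as no stem-loop. The 16 bases of the stem-loop are in capitals, read 5′ to 3′ from GENCODE transcripts, with up to 5 flanking bases in lower case.
Hist1h1e: ccaaaGGCTCTTTTCAGAGCCaccca
Hist1h1c: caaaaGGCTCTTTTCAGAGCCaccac
Hist1h2ap: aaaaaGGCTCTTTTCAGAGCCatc
Hist1h2ab: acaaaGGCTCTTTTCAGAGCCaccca
Hist3h2ba: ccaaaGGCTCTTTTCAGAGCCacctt
Hist1h3e: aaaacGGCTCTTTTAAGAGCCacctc
Hist1h4d: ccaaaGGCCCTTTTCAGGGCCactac
Hist2h2ac: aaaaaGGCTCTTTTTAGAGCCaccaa
A stem-loop of this kind was found in the transcript models of 41 of the 67 genes. GGCTCTTTTCAGAGCC occurred in 25 of them, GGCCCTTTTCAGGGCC in 7 and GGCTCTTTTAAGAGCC in 6. Of the 26 models without one, 13 end at the stop codon, Hist1h1b among them, so for those the model holds no bases in which a stem-loop could lie. The models differed in what follows the loop: Hist1h2ap ends 3 bases and Hist1h2ab 11 bases after it, whereas Hist1h1c continues for 840 bases, Hist1h1e for 1153, Hist3h2a for 1643 and Hist1h2ac for 2010.

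Promoters shared motifs as well, and 4 are printed because their genes separate in the counts below. Each is the 150 bases before the RefSeq start site on GRCm38.p6, read on the gene's strand, with capitals for CCAAT boxes, for the letters TATAAA, and for the octamer ATTTGCAT, each on either strand.
Hist1h1b, chr13:21780626-21780775, minus strand: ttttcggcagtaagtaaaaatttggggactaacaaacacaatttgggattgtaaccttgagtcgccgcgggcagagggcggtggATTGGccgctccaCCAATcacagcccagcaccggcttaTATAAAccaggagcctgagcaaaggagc
Hist1h2ac, chr13:23683960-23684109, minus strand: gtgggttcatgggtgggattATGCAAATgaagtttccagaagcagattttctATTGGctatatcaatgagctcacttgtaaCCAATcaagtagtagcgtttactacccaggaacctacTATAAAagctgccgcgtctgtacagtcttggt
Hist3h2a, chr11:58954535-58954684, plus strand: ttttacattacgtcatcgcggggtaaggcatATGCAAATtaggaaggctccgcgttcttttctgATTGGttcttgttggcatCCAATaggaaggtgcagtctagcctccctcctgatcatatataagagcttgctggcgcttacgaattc
Hist3h2ba, chr11:58948761-58948910, plus strand: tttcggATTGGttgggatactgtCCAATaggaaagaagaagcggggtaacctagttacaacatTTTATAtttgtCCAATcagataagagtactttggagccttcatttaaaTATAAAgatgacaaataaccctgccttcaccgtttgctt
RefSeq promoters were matched for 62 of the 67 genes. Within 250 bases before the start, CCAAT lay in 51 of them (82.3%), against 33.9% of 32851 promoters. TATAAA lay in 29 histone promoters against 12.4% of all, and the octamer in 13 (20.97%) against 1.60% of all. The octamer promoters were those of 7 of 18 H2A genes and 6 of 16 H2B genes, and none of the H1, H3 or H4 promoters held it. A match describes letters in a window and is not evidence of binding. In 12 pairs, all of them an H2A gene beside an H2B gene, the genes faced away from each other with under 400 bases between their starts. The 250-base windows of such a pair overlap, so 1 site can count for both genes. That was so for the octamer of Hist1h2ae and Hist1h2bg, 175 bases apart. The motif counts are therefore of promoters and not of separate sites. Hist1h2ac and Hist1h2bc form such a pair with 250 bases between them, yet Hist1h2ac had 3385 UMIs and Hist1h2bc 97574.

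Over the kept cells the 67 genes held 326430 UMIs, and few members carried most of them. Hist1h2bc, an H2B gene, made up 29.9% of the total. The first 3 members, Hist1h2bc, Hist1h1e and Hist1h1c, held 62.8% and the first 25 held 96.9%. In all, 43 genes reached 200 UMIs, 5 had at least 100 but under 200, 16 had 1 to 99, and Hist1h2aa, Hist1h2ba and Hist1h2bq had none. Reads of near-identical copies cannot be told apart: every 90-base window in the last 400 bases of Hist1h2ap, Hist2h2aa1 and Hist2h3c1 also occurs in another annotated gene. Hist1h2bq and Hist1h2br share every such window with each other, so the lack of UMIs for Hist1h2bq does not show that it was silent. Hist1h1e, whose model overlaps that of Hist1h2be on the same strand, is uncertain in the same way, and whether counting used strand is not given in the sources used here.

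Library totals were 62726818 to 76652484 UMIs, and 9529 to 10571 cells per library were kept. Values given per library below are in 1 order, called the library order: the young pair first, sham then tumour, and the old pair next, again sham then tumour. Histone UMIs per 10000 UMIs were 16.2, 17.1, 9.22 and 12.5 in library order. Young tumour was the only library in which cells led by Hmga2 were numerous, with 380 cells against 1 in each of the others. Those cells held 24.6% of that library's histone UMIs, and without them the young tumour level was 15.8. Summed transcripts of 12 dissociation-responsive genes stood at 63.5, 30.8, 93.9 and 39.1 per 10000 in library order, so both sham libraries were above both tumour libraries. Pairs of libraries shared 24 to 49 cell barcodes.

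Cell classes were gated on 6 marker genes each and are called by the type with the suffix -like. A cell was called Mki67/Top2a-positive when it held at least 1 UMI of Mki67 or Top2a, genes of cycling cells, and negative otherwise. In library order, 163, 836, 72 and 70 cells were positive. They held 14.0%, 45.04%, 7.11% and 1.57% of the histone UMIs of those libraries, and 3.11%, 26.1%, 1.14% and 0.900% of all their UMIs, while making up 1.54%, 7.99%, 0.756% and 0.712% of the cells. Positive cells were deeper than negative ones, most of all in young tumour (median 14514.5 against 3584 UMIs), so the share of all UMIs is the base to set the histone share against. A single tag is a loose criterion. Neuron-like cells, which do not divide, were positive in 4 of 309 cells (1.29%, exact Clopper-Pearson 95% interval 0.354 to 3.28, median 6554 UMIs), and microglia-like cells in 91 of 11524 (0.790%, 0.636 to 0.969, median 3915.5 UMIs). The share in microglia-like cells was not above that in neuron-like cells and is not read as a share of dividing cells, whereas that in neuroblast-like cells was 22.3% (141 of 632). The positive microglia-like cells did differ from the negative ones in the cell cycle genes given further on.

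**Figure D1:**
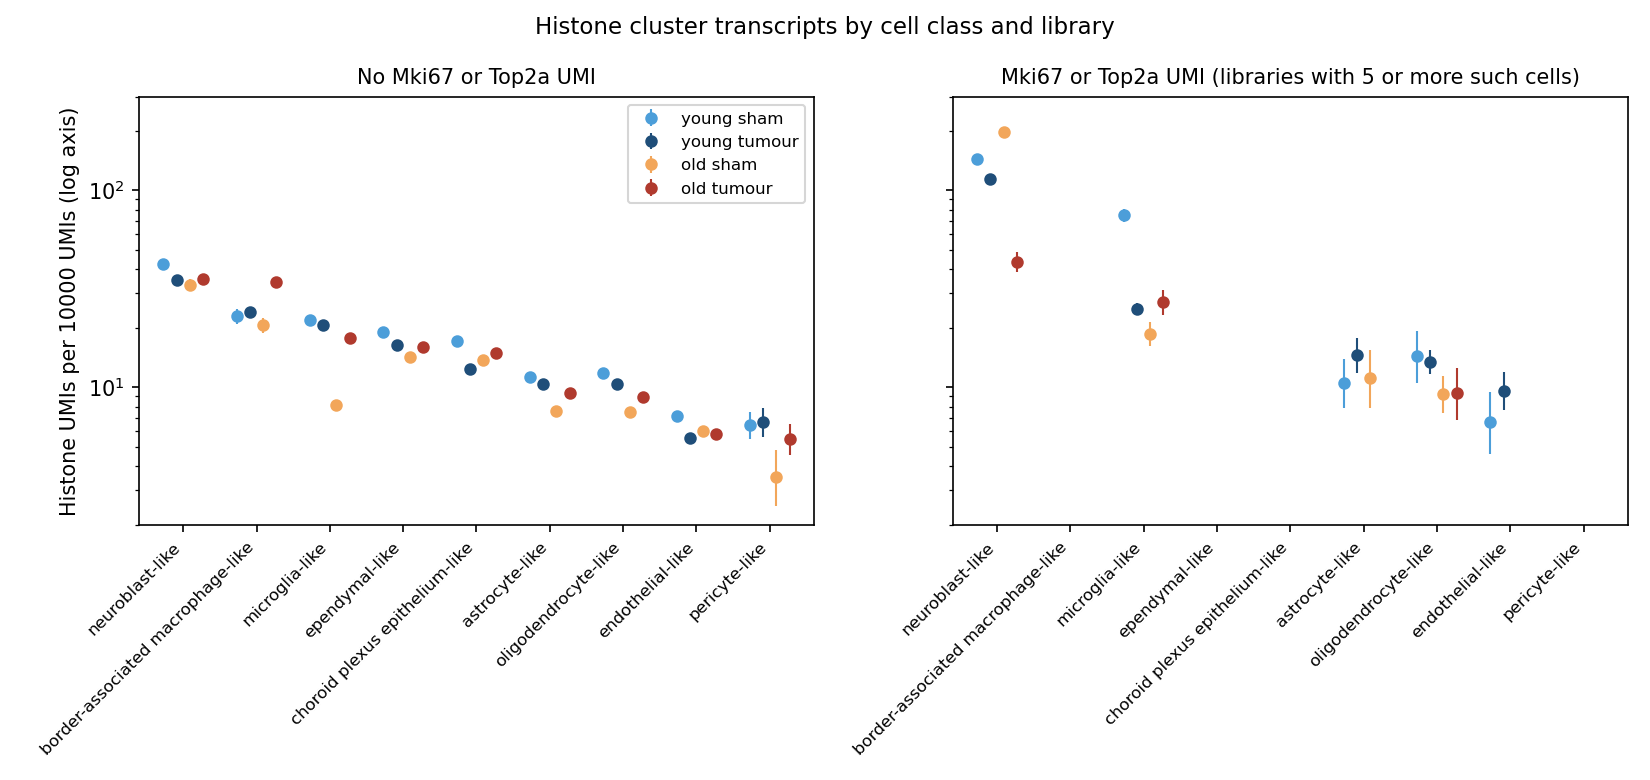
Histone UMIs per 10000 UMIs (log axis) in 9 cell classes, for cells without (left) and with (right) a Mki67 or Top2a UMI. Each point is 1 library and bars are exact 95% intervals for counting error; the right panel leaves out libraries with under 5 such cells. Within each library neuroblast-like cells lie highest in both panels, and the old sham point of microglia-like cells lies apart at 8.14.

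Among negative cells the classes differed by several fold. Neuroblast-like cells, the migrating newborn neurons of the adult forebrain, were highest, with 42.1, 35.2, 33.1 and 35.5 histone UMIs per 10000 in library order. Border-associated macrophage-like cells followed at 23.0, 24.2, 20.7 and 34.2. Microglia-like cells had 22.0, 20.7, 8.14 and 17.7, the widest relative range between libraries among the 9 classes. Ependymal-like cells ranged from 14.3 to 19.1, choroid plexus epithelium-like cells from 12.4 to 17.1, astrocyte-like cells from 7.56 to 11.3 and oligodendrocyte-like cells from 7.49 to 11.8. Endothelial-like cells (5.52 to 7.15) and pericyte-like cells (3.52 to 6.64) were lowest. The range of neuroblast-like cells overlapped only with that of border-associated macrophage-like cells. The ranges of ependymal-like and choroid plexus epithelium-like cells overlapped with each other and lay above those of astrocyte-like and oligodendrocyte-like cells, which in turn lay above those of endothelial-like and pericyte-like cells.

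The classes also differed in which histone they transcribed. Linker histone H1 made up 55.9% to 64.6% of the histone UMIs of negative microglia-like cells and 48.1% to 59.1% of those of border-associated macrophage-like cells, but 18.6% to 19.8% in choroid plexus epithelium-like cells. H2B took the reverse course: 69.2% to 71.8% in choroid plexus epithelium-like cells, 61.5% to 68.4% in oligodendrocyte-like cells, 52.2% to 57.9% in astrocyte-like cells and 15.9% to 22.8% in microglia-like cells. H4 was at 19.3% to 21.4% in ependymal-like cells, against 5.29% to 6.35% in choroid plexus epithelium-like cells. The H1 ranges of the macrophage-like classes overlapped each other, and the other ranges compared here did not overlap.

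Each class was set against the mean of the other 8, over the 4 libraries. Microglia-like cells had 30 of 40 tested histone genes higher and 2 lower, where 38.4% of all 15595 genes were higher and 22% lower. All 12 dissociation-responsive genes were also higher in these cells and in border-associated macrophage-like cells, and their part in the result was not tested. Border-associated macrophage-like cells had 25 higher and none lower (18.6% of all genes higher, 17.6% lower). At an unadjusted p under 0.05, 1 gene was lower in them, and DESeq2 gave 30 higher and 0 lower. Neuroblast-like cells had 27 higher and 1 lower (24.8% and 25.3%). In the same comparison 17 of 19 S phase genes and 5 of 9 G2 and M phase genes were higher in these negative neuroblast-like cells and 0 lower, and their part in the result was not tested. The balance was the other way in oligodendrocyte-like cells, with 2 higher and 15 lower (37.1% and 22.8%), and in endothelial-like cells, with 0 higher and 13 lower (35.3% and 20.1%). At an unadjusted p, 1 was higher in endothelial-like cells, and DESeq2 gave 0. Astrocyte-like cells had 7 higher and 14 lower (37.4% and 25.9%), choroid plexus epithelium-like cells 11 and 7 (34.1% and 31.7%), ependymal-like cells 11 and 8 (36.4% and 28.6%), and pericyte-like cells 1 and 9 (14.8% and 10.7%). With cells thinned to 1000 UMIs the sum over classes fell from 114 to 54 genes higher and from 69 to 38 lower. DESeq2 gave 122 lower, among them 32 in oligodendrocyte-like, 30 in endothelial-like and 6 in microglia-like cells.

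**Figure D2:**
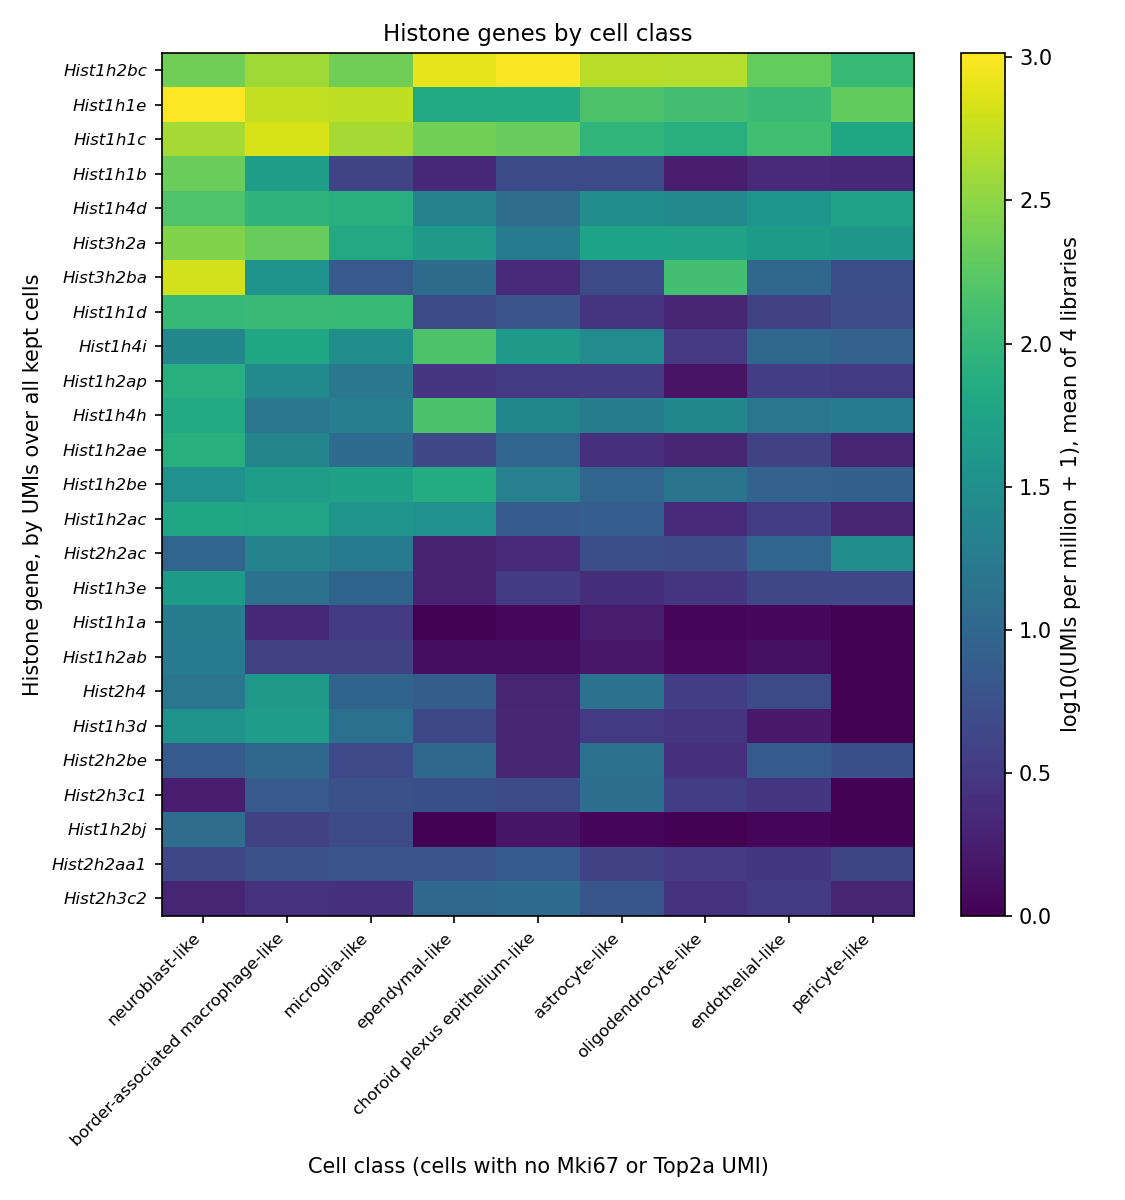
The 25 histone genes with the most UMIs (rows) in negative cells of 9 classes (columns), coloured by log10(CPM + 1) averaged over 4 libraries. Hist1h2bc is brightest in choroid plexus epithelium-like cells, Hist3h2ba in neuroblast-like cells, and Hist1h1e in neuroblast-like and both macrophage-like classes.

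Levels below are CPM, the UMIs of a gene scaled to a common total of a class's negative cells, as mean ± SD over the 4 libraries. Among H1 genes, Hist1h1e (chr13:23620629-23622558) stood at 1035 ± 97.6 in neuroblast-like, 547 ± 186 in border-associated macrophage-like and 535 ± 209 in microglia-like cells, and at 67.5 ± 10.8 in ependymal-like cells. Hist1h1c (chr13:23738808-23740367) was highest in border-associated macrophage-like cells, at 683 ± 193, against 410 ± 144 in microglia-like and 79.8 ± 52.4 in oligodendrocyte-like cells. Hist1h1d (chr13:23553262-23560686) fell into a high and a low set of classes. It stood at 114 ± 51.1 in border-associated macrophage-like, 106 ± 54.6 in microglia-like and 105 ± 15.1 in neuroblast-like cells, and at means of 1.08 to 5.28 in the other 6 classes. The log2 difference of Hist1h1d from the mean of the other classes was 4.06 ± 0.17 (SE) in microglia-like cells, at an adjusted p of 1.7e-23. Hist1h1b (chr13:21779883-21780625) was at 213 ± 49.1 in neuroblast-like and 3.11 ± 3.91 in microglia-like cells.

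Among H2B genes, Hist1h2bc (chr13:23684199-23692908) was the choroid plexus epithelium-like cells' leading member at 1005 ± 153 CPM, followed by 791 ± 57.7 in ependymal-like, 496 ± 63.4 in astrocyte-like and 478 ± 70.6 in oligodendrocyte-like cells. Its log2 difference was 2.46 ± 0.10 (adjusted p = 1.1e-23) in choroid plexus epithelium-like cells and -1.13 ± 0.15 (adjusted p = 4.8e-08) in neuroblast-like cells. Hist3h2ba (chr11:58948920-58949533), another H2B gene, had a different pattern. It stood at 640 ± 185 in neuroblast-like and 129 ± 23.2 in oligodendrocyte-like cells, and at 1.28 ± 0.655 in choroid plexus epithelium-like cells. Its neighbour on chromosome 11, the H2A gene Hist3h2a (chr11:58954685-58956830), was also highest in neuroblast-like cells at 279 ± 69.0, with overlap into border-associated macrophage-like cells (203 ± 89.3). Oligodendrocyte-like cells (53.0 ± 11.5) did not stand apart from astrocyte-like cells (54.9 ± 17.1) in Hist3h2a.

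The H4 genes encode the same protein, and different members led in different classes. Hist1h4i (chr13:22040636-22041362) was at 147 ± 38.3 and Hist1h4h (chr13:23531050-23531519) at 141 ± 12.6 CPM in ependymal-like cells, the ciliated lining of the ventricles. In oligodendrocyte-like cells Hist1h4h was at 24.5 ± 4.25 and Hist1h4i at 2.17 ± 1.70. Hist1h4d (chr13:23581598-23582735) was instead highest in neuroblast-like cells at 151 ± 28.7, and at 76.7 ± 12.05 in microglia-like cells. Of the H3 genes, Hist1h3d (chr13:23575763-23577011) reached 43.6 ± 8.92 in border-associated macrophage-like cells and 2.27 ± 2.13 in astrocyte-like cells. Hist2h3c1 was the member with the largest positive log2 difference in astrocyte-like cells among the histone genes that passed the test (2.56 ± 0.30), at 11.4 ± 3.55 CPM there. Hist2h2ac, an H2A gene, was highest in pericyte-like cells at 28.9 ± 6.52. All histone genes together held 40 to 154 UMIs per library in those negative cells, so this lead rests on few UMIs.

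Positive neuroblast-like cells had more histone RNA than negative ones in every library: 145 against 42.1 per 10000, 115 against 35.2, 198 against 33.1 and 43.5 against 35.5 in library order. In library order the positive cells numbered 39, 78, 16 and 8. The old tumour pair was the closest, and 5 cells held 78.5% of the histone UMIs of its positive cells. Positive cells were also deeper, with medians of 8282 to 9686.5 UMIs against 3133.5 to 3690. Of 18 histone genes tested, 13 rose and 2 fell in positive cells, where 16.9% of all 5068 genes rose and 16.2% fell. Some of the 13 can have passed the low-count filter through their positive cells alone. The median log2 difference was 1.57 over the histone genes and -0.03 over all genes. This test was added after the cell counts were seen. Without old tumour it gave 24 genes higher, and on cells thinned to 1000 UMIs 6.

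The linker genes Hist1h1a and Hist1h1b led in neuroblast-like cells. Hist1h1b stood at 3223, 2511, 6271 and 468 CPM in positive cells in library order, and at 189, 163, 276 and 224 in negative cells. The old tumour library was the lowest among positive cells, and the 2 states did not overlap. Its log2 difference was 3.70 ± 0.19 (SE, n = 4 libraries, adjusted p = 1.2e-23). Hist1h1a rose by 4.50 ± 0.22 on the log2 scale (adjusted p = 5.1e-25). The smaller increases were those of Hist1h1e (1.33 ± 0.11) and Hist1h1c (0.62 ± 0.14), whose RNA negative cells also held at high levels.

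Other members that rose in positive neuroblast-like cells were the H2A genes Hist1h2ap (3.44 ± 0.21) and Hist1h2ae (3.45 ± 0.22), the H2B gene Hist1h2bm (3.60 ± 0.37, named after its value was seen), the H3 gene Hist1h3e (2.66 ± 0.23) and the H4 gene Hist1h4d (2.20 ± 0.19), all as log2 differences. Both chromosome 11 genes fell. Hist3h2ba stood at 310, 244, 134 and 170 CPM in positive cells and at 884, 660, 568 and 448 in negative cells, in library order. Every positive value lay below every negative one. Hist3h2ba fell by 1.54 on the log2 scale (SE 0.14, adjusted p = 1.2e-13) and Hist3h2a fell by 1.42 (SE 0.18, adjusted p = 2.6e-09). Both falls were also called on cells thinned to 1000 UMIs. Hist1h2bc (-0.17 ± 0.18, adjusted p = 0.50) and Hist1h2ac (0.10 ± 0.24, adjusted p = 0.79) did not pass the test.

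**Figure D3:**
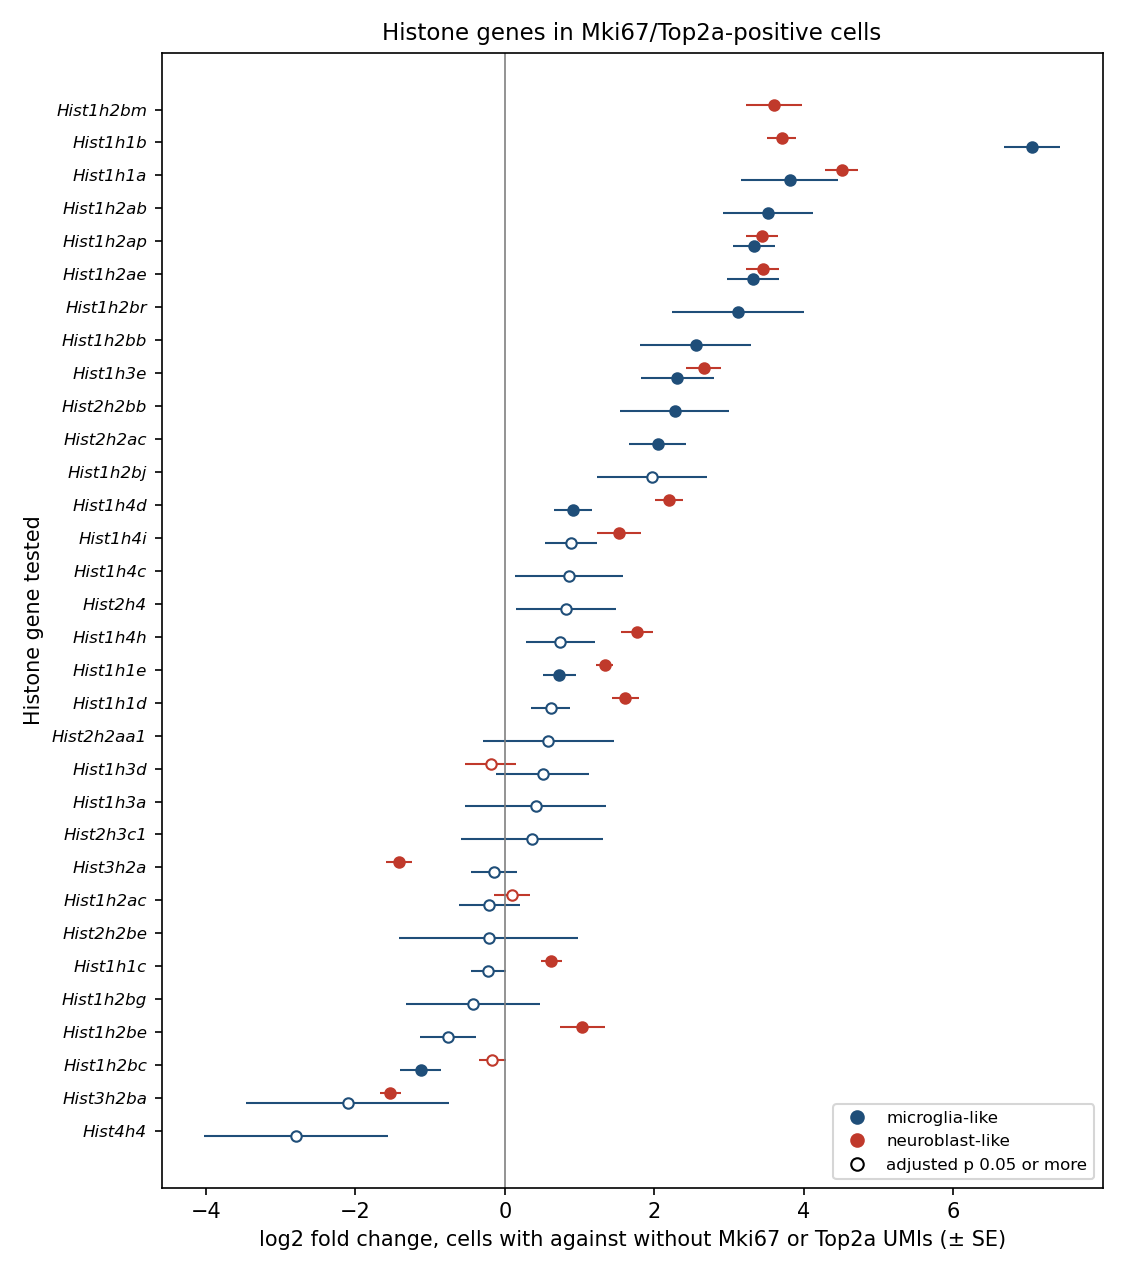
log2 fold change ± SE (x axis) of each tested histone gene (y axis) between Mki67/Top2a-positive and negative cells, in microglia-like and neuroblast-like cells, over 4 libraries. Filled points have an adjusted p under 0.05; Hist1h1b lies farthest right at 7.05 in microglia-like cells, and Hist3h2a and Hist3h2ba lie left of 0 in neuroblast-like cells.

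Microglia-like cells had few positive members, 11, 53, 15 and 12 in library order. Their histone level was 74.7 against 22.0 per 10000, 25.1 against 20.7, 18.8 against 8.14 and 27.2 against 17.7. In young sham 5 cells held 90.1% of the positive cells' histone UMIs, and in the other libraries 42.2% to 82.4%. Of 31 histone genes tested, 12 rose and 1 fell, where 3.42% of all 10912 genes rose and 1.33% fell. At an unadjusted p under 0.05, 15 were higher and 3 lower. Here too the low-count filter could keep a sparse gene for its positive cells alone. Without young sham 6 genes rose, 5 of them among the 12, and without young tumour 10 rose, 9 of them among the 12. Young tumour gave 53 of the positive cells and was the library with 380 Hmga2-led cells, whose part in these counts was not tested. Without doublet removal 19 genes rose. On cells thinned to 1000 UMIs 1 gene rose, and with no library block 6 did.

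Hist1h1b stood at 2407, 294, 0 and 74.6 CPM in positive and at 3.15, 8.61, 0.158 and 0.507 in negative microglia-like cells in library order. The old sham value rested on no UMI in 15 cells. The 11 young sham cells held 191 UMIs, all of them in 5 cells, and the 53 young tumour cells held 112. The log2 difference was 7.05 ± 0.37 (adjusted p = 9.8e-77), and neither that SE nor that p-value shows how far the libraries differed. Hist1h2ap, at 265, 129, 259 and 14.9 in positive cells against 12.5, 25.2, 7.97 and 14.2 in negative cells, rose by 3.33 ± 0.28 on the log2 scale (adjusted p = 5.0e-29). In old tumour the 2 states of Hist1h2ap were nearly equal, from 1 UMI in positive cells. Hist1h1a, Hist1h2ab, Hist1h2ae, Hist1h2br, Hist1h2bb, Hist2h2bb, Hist1h3e, Hist2h2ac, Hist1h4d and Hist1h1e also rose, by 0.73 (Hist1h1e) to 3.81 (Hist1h1a). Of these, Hist1h2br, Hist1h2bb and Hist2h2bb were named after their values were seen, and Hist1h2br cannot be told from Hist1h2bq at its 3' end. Hist1h2bc fell by 1.13 (SE 0.27, adjusted p = 0.0014), from 397, 218, 118 and 196 in negative cells to 88.2, 163, 80.4 and 59.7 in positive cells. It was lower in each library, although the 2 ranges overlapped. DESeq2 called 0 genes lower, with 1 at an unadjusted p under 0.05, and Hist1h2bc had an adjusted p of 0.11 there and of 0.20 in edgeR without young sham.

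Over the gated classes together, without the Hmga2-led cells, 39 of 48 tested histone genes rose and 1 fell, where 13.8% of all 16057 genes rose and 15.2% fell. The classes were not equally represented in the 2 states, so this count mixes class and state. A sparse gene could also pass the low-count filter through its positive cells alone. The 39 can therefore include genes kept for being high there, and so can the highest values given below. The histone level was 86.6, 58.3, 66.1 and 22.7 per 10000 in positive cells against 15.1, 13.7, 8.60 and 12.5 in negative cells in library order. Hist1h3c, an H3 gene, had the highest log2 difference at 9.85 ± 0.64, ahead of Hist1h1b (7.71 ± 0.53) and Hist1h3g (7.39 ± 0.89). The H3 genes Hist1h3c and Hist1h3g were named after their values were seen. Hist3h2ba rose over the pooled classes (1.15 ± 0.20, adjusted p = 0.0013), opposite to its fall within neuroblast-like cells, the class in which it was highest. Hist1h2bc was the member that fell (-0.88 ± 0.21, adjusted p = 0.0079). Thinning to 1000 UMIs left 18 genes higher and 0 lower, with 1 lower at an unadjusted p.

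Other classes showed the contrast to different degrees. Positive T cell-like cells of young tumour had 47.6 histone UMIs per 10000 against 8.88 in negative ones (66 and 230 cells), and in old tumour 15.5 against 9.25 (22 and 132 cells). The 20 positive erythroid-like cells of young sham had 157. Positive astrocyte-like cells had 10.6, 14.6, 11.2 and 9.95 against 11.3, 10.4, 7.56 and 9.40 in negative ones, from 2 to 18 cells a library. Positive oligodendrocyte-like cells had 14.4, 13.5, 9.22 and 9.38 against 11.8, 10.4, 7.49 and 8.89. In both of these glial classes the ranges of the 2 states overlapped. The 351 positive Hmga2-led cells of young tumour had 24.1 per 10000 at a median of 26652 UMIs, below the 115 of positive neuroblast-like cells in the same library. H1 made up 51.3% of the histone UMIs of the positive Hmga2-led cells and 52.8% of those of the positive neuroblast-like cells.

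Genes that act on histones or on the cell cycle were followed as fixed lists. Over all genes, 16.9% rose and 16.2% fell in positive neuroblast-like cells, and 3.42% rose and 1.33% fell in positive microglia-like cells. Positive cells were chosen by genes of cycling cells, so a rise of the cell cycle lists partly follows from that choice. All 15 tested G2 and M phase genes rose in positive neuroblast-like cells and all 12 tested in microglia-like cells, as did 18 of 18 and 19 of 19 S phase genes. Of the genes for histone mRNA processing and histone supply, 9 of 11 rose in neuroblast-like and 8 of 18 in microglia-like cells. Slbp, which binds the stem-loop, rose by 2.13 in neuroblast-like and 0.95 in microglia-like cells on the log2 scale, and Npat, the S phase activator of histone genes, had 1.29 (adjusted p = 0.0040) and 0.46 (adjusted p = 0.77). Chaf1a, a chaperone subunit that places histones on new DNA, rose by 2.90 and 4.27. Of the replication-independent histone genes, 8 of 11 rose and 1 fell in neuroblast-like cells, and 4 of 9 rose in microglia-like cells. H2afx rose by 4.03 and 4.38 and H2afz by 2.24 and 2.11, whereas H3f3a fell by 0.24 in neuroblast-like cells (adjusted p = 0.0071), a call that DESeq2 did not make. Dissociation-responsive genes were 3 of 7 higher in positive neuroblast-like cells and 1 of 12 lower in positive microglia-like cells, where DESeq2 gave 0 and 5 were lower at an unadjusted p under 0.05.

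Members with a short annotated tail and members with a long one differed in where their RNA was found. The 20 genes whose model ends under 100 bases after the stem-loop held 7.12% of the histone UMIs, and the 21 genes with a longer tail 55.4%. In positive cells the short group held 15.4%, 19.1%, 18.8% and 9.51% of histone UMIs in library order, and in negative cells 3.09%, 4.76%, 5.28% and 4.29%. The positive shares lay above the negative ones in each library. Over the gated classes the median log2 difference of positive against negative cells was 4.56 over 12 tested genes with a short tail and 1.31 over 20 with a long tail. It exceeded 3 in 9 of the 12 and in 4 of the 20. Tested genes were those past the low-count filter, 12 of 20 with a short tail and 20 of 21 with a long one. Median UMIs per gene were 334.5 and 2071 in these groups, and a sparse gene could pass through its positive cells alone. The short-tail values can therefore rest in part on genes kept for being high in positive cells. The highest value among long tails was that of Hist1h2ae (5.68 ± 0.58), and the lowest among short tails that of Hist1h4h (2.11 ± 0.33). The 26 genes with no stem-loop in their model held 37.5% of the histone UMIs, and 16 of them were tested, with a median of 5.11 and 13 above 3. Their median lay above that of the short-tail group, and their tail length could not be read. The groups were read from gene models, not from the reads, and no test was made of this difference.

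**Figure D4:**
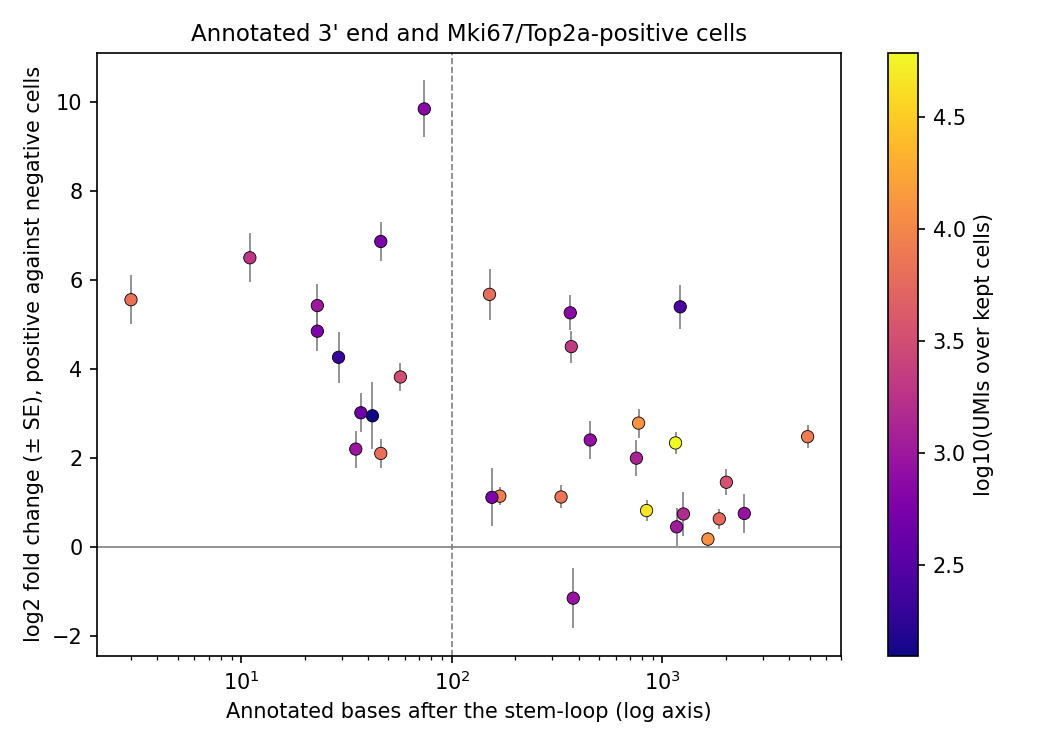
Bases annotated after the stem-loop (x axis, log) against the log2 fold change ± SE between Mki67/Top2a-positive and negative cells of all gated classes (y axis), for the 32 tested histone genes with a stem-loop, coloured by log10 of their UMIs. The dashed line marks 100 bases, and the median is 4.56 to its left and 1.31 to its right. Only genes past the low-count filter are shown, which a sparse gene could pass through positive cells alone.

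Age and tumour were compared within a class, in negative cells. These contrasts, of 1 library against another, were not tested. Ratios carry exact 95% intervals for counting error only, and a group and its library cannot be told apart. In microglia-like cells, old sham had 8.14 histone UMIs per 10000 against 22.0 in young sham, a ratio of 0.370 (0.362 to 0.379). Of 22 histone genes with at least 100 UMIs, 16 were lower by 1.5-fold or more and 1 was higher, where 6.43% of 9912 genes were lower and 4.92% higher. The median log2 ratio was -1.41 over the histone genes and -0.07 over all. Between the tumour libraries the ratio of old to young was 0.858 (0.842 to 0.875), with 6 of 24 genes lower and 0 higher (1.96% of all genes lower, 2.5% higher).

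Old sham stood apart from the other 3 libraries in many members. The H3 gene Hist1h3d was at 20.5, 16.1, 1.97 and 7.69 CPM in microglia-like cells in library order. Its old to young ratio in sham was 0.0964 (0.0613 to 0.145). The linker gene Hist1h1d was at 125, 155, 28.0 and 115, a ratio of 0.223 (0.198 to 0.2503), and Hist1h1e at 645, 676, 225 and 595. For these linker genes old sham lay far below the 3 other libraries. Hist1h2ac was also lowest in old sham, at 48.8, 54.6, 7.34 and 32.8 (ratio 0.150, 0.120 to 0.187), and Hist3h2ba (0.158) and Hist1h2bg (0.168) had similar ratios.

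Not every member followed. Hist2h2ac, an H2A gene, was at 13.2, 12.3, 20.2 and 18.1 CPM in microglia-like cells, higher in both old libraries, with ratios of 1.53 (1.26 to 1.86) in sham and 1.47 (1.17 to 1.84) in tumour. Hist1h3e was at 8.21, 8.32, 8.36 and 8.54, nearly the same in all. Hist1h4h was at 14.2, 20.5, 19.0 and 19.9, and Hist1h4c had an old to young sham ratio of 0.929 (0.674 to 1.28). Hist1h4d, at 79.4, 85.3, 59.0 and 83.2, fell short of the 1.5-fold line (0.744, 0.676 to 0.817).

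**Figure D5:**
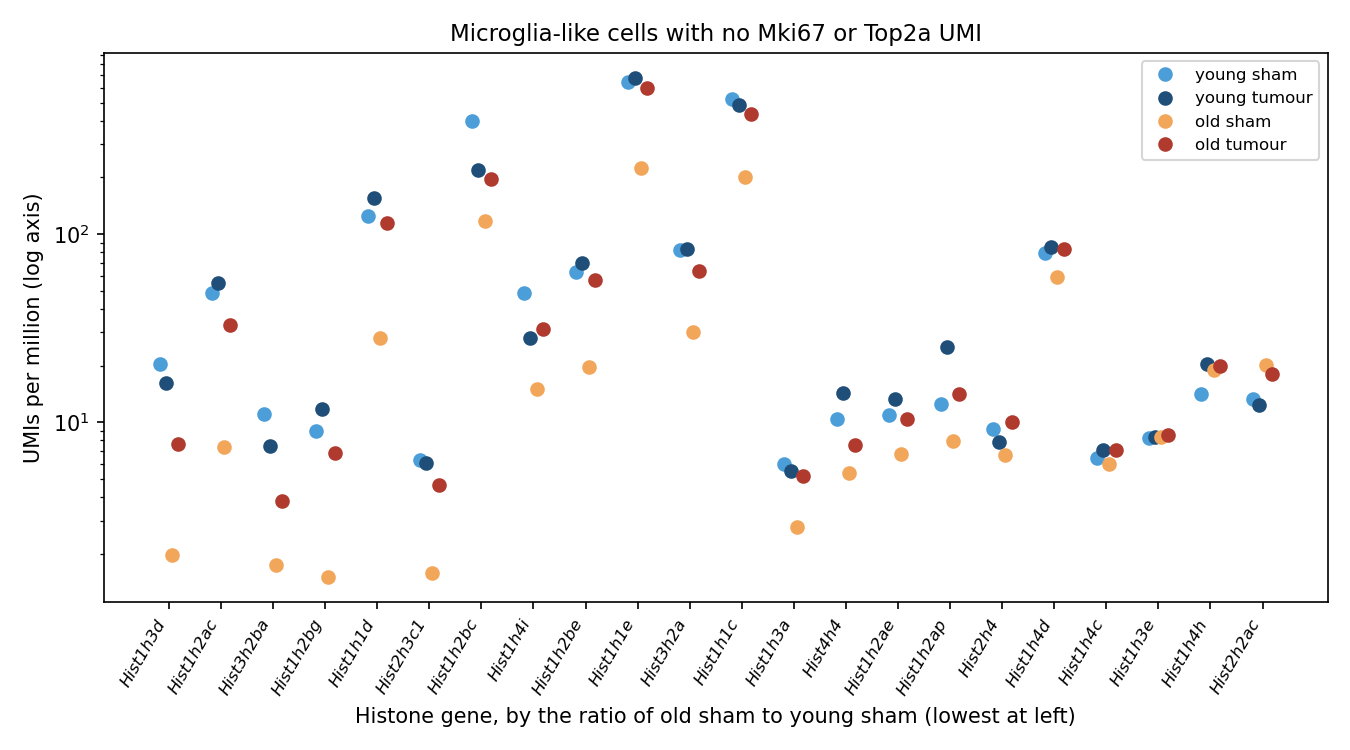
CPM (log axis) of 22 histone genes in negative microglia-like cells, 1 point per library, ordered by the ratio of old sham to young sham. The old sham points lie lowest at the left, and at the right, for Hist1h3e and Hist1h4h, the libraries lie close together or old sham is not the lowest.

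The same libraries give the tumour comparison, so each library enters an age and a tumour comparison. In old microglia-like cells the tumour to sham ratio was 2.18 (2.13 to 2.23), with 13 of 20 histone genes higher by 1.5-fold or more and 0 lower, where 3.85% of 9774 genes were higher and 3.16% lower. Hist1h2bg (4.57, 2.75 to 7.98), Hist1h2ac (4.47, 3.56 to 5.67), Hist1h1d (4.09, 3.64 to 4.61), Hist1h3d (3.90, 2.48 to 6.34) and Hist1h2be (2.90, 2.50 to 3.36) had the highest ratios. In young cells the ratio of the sums was 0.939 (0.923 to 0.956), with 3 of 26 genes higher and 2 lower (2.1% and 1.5% of 9821 genes). The lower ones were Hist1h2bc at 0.549 (0.522 to 0.577) and Hist1h4i at 0.576 (0.4997 to 0.662). The higher ones were Hist1h1b at 2.73 (1.88 to 4.03), Hist1h2ap at 2.02 (1.66 to 2.46) and Hist2h2aa1 at 1.57 (1.09 to 2.27). Hmga2 was at 2.84 CPM in these young tumour cells and 1.54 in young sham, and the Hmga2-led markers summed to 65.7 and 28.9. Their part in the higher values was not tested.

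Dissociation-responsive genes moved between the same libraries. Their summed level in negative microglia-like cells was 18766, 8890, 25266 and 11755 CPM in library order, highest in old sham, where the histone level was lowest. All 12 were lower by 1.5-fold or more in tumour than in sham in young cells and 10 of 12 in old cells. Tnf, Ccl4 and Il1a are genes of activated microglia, and Atf3 is on the dissociation-responsive list. A split on all of them is therefore not separate from that list. Cells with a UMI of Tnf, Ccl4, Il1a or Atf3 were 60.7%, 43.5%, 89.0% and 62.2% of negative microglia-like cells in library order. In the cells without such a UMI, the histone ratios were 0.459 (old to young, sham), 0.656 (old to young, tumour), 1.19 (tumour to sham, young) and 1.70 (tumour to sham, old), from 272 to 1637 cells a library. Over all negative microglia-like cells the age ratios were 0.370 in sham and 0.858 in tumour, and the tumour ratio in old cells 2.18. The tumour to sham ratio in young cells passed from below 1 to above it. In old sham 272 of 2479 cells were left, the fewest of any library. The part of these genes in the histone ratios was not tested. Of the replication-independent histone genes, 0 of 8 passed 1.5-fold in either direction between old and young sham, and of the genes of histone mRNA and supply 0 of 13. Over all 9912 genes 4.92% were higher and 6.43% lower, so lists this short would hold few such genes at those shares.

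Between the sham libraries the other classes moved less than microglia-like cells, whereas between the tumour libraries some moved further than microglia-like cells (0.858). Between old and young sham the histone ratio was 0.671 (0.648 to 0.694) in astrocyte-like, 0.634 (0.616 to 0.653) in oligodendrocyte-like, 0.547 (0.376 to 0.778) in pericyte-like, 0.751 (0.708 to 0.797) in ependymal-like, 0.786 (0.722 to 0.856) in neuroblast-like, 0.803 (0.776 to 0.831) in choroid plexus epithelium-like and 0.842 (0.801 to 0.885) in endothelial-like cells. Border-associated macrophage-like cells had 0.899 (0.794 to 1.02). The ratio lay below 1 in all 9 classes, and all 9 were read from the same 2 libraries. Between the tumour libraries the old to young ratio ranged from 0.821 in pericyte-like to 1.41 (1.30 to 1.53) in border-associated macrophage-like cells, the class in which old tumour was the highest library. In astrocyte-like cells 6 of 11 histone genes were lower by 1.5-fold or more in old sham and 0 higher (1.89% and 3.28% of all genes), and in oligodendrocyte-like cells 3 of 9 were lower and 1 higher (2.91% and 6.85%).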

How the data were processed

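Single-cell RNA was counted in 4 libraries (10x Genomics 3' v3), 1 per group, so each age and tumour comparison rests on 1 library a side. The deposited matrices hold raw UMI counts per gene and cell. The submitters' processing notes name Cell Ranger 3.0.2 and Seurat 2.3.4 with build mm10, whereas the file headers name Cell Ranger 6.1.0. The gene annotation release is not given in the sources used here. The members and gene lists were chosen with earlier results of these data known.

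Cells with at least 500 UMIs, 200 genes and at most 20% mitochondrial UMIs were kept, and 4113 predicted doublets were removed with scanpy 1.11.5 (Scrublet, at an expected 0.8% per 1000 cells), leaving 40390 cells. A class needed UMIs of at least 3 of its 6 markers and a lead of 2 over the next class. That gated 35520 cells. Intervals and floors cover counting error only. Named genes were those with at least 200 UMIs, at most 25 by summed UMIs, and in each contrast the 5 highest and 5 lowest ratios among genes with at least 100 UMIs. Other genes are said to be named after their values were seen.

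UMI counts were summed per library, class and state and tested with edgeR 4.0.16 (R 4.3.3, TMM, filterByExpr, quasi-likelihood test, library as a block, Benjamini-Hochberg over all genes, threshold 0.05). Nothing in the labels says that the libraries are replicates, and these p-values rest on a within-library difference over 4 libraries of 4 different groups. The SE is the log2 fold change divided by the square root of F. The test draws the variance of each gene toward that of other genes. Neither the p-value nor the SE therefore shows how alike the libraries were for 1 gene. On simulated counts for the microglia-like comparison, 42 of 49 genes changed 4-fold upward and 7 of 50 changed 2-fold upward were called, and 3 of 10391 unchanged genes. Downward, 19 of 48 genes changed 4-fold and 5 of 47 changed 2-fold were called. These counts were drawn per library and state, without the concentration in a few cells seen in the data. Alternatives were DESeq2 1.42.0, other filters, gates and scalings, thinning to 1000 UMIs, no block, and leaving out each library.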

Additional observations from a re-analysis of the deposited data

Results flagged for a closer look

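The histone ratio of tumour to sham pointed in opposite directions in young and old mice, with both counting intervals clear of 1, in 5 classes. It was 0.939 in young and 2.18 in old microglia-like cells, 0.925 and 1.24 in astrocyte-like cells, 0.881 and 1.19 in oligodendrocyte-like cells, 0.725 and 1.09 in choroid plexus epithelium-like cells, and 0.858 and 1.13 in ependymal-like cells. The young microglia-like ratio did not stay below 1 under every setting. It was 1.19 in cells without Tnf, Ccl4, Il1a or Atf3 UMIs, and it also lay above 1 without Hist1h2bc. The ratio of old to young in choroid plexus epithelium-like cells was 0.803 in sham and 1.21 in tumour, and among the 9 classes it was the only one whose age ratios did the same. Thinned to 1000 UMIs, the ratio in tumour was 0.993, on the same side of 1 as in sham. The ratios of 0.835 in young and 1.07 in old neuroblast-like cells for tumour, and the age ratios of border-associated macrophage-like (0.899 and 1.41), endothelial-like (0.842 and 1.04) and neuroblast-like cells (0.786 and 1.01), also lay on opposite sides of 1, but in each pair an interval held 1. With 1 library per group none of these differences was tested. The classes of a library share that library, so they are not separate observations of it.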

How the results depend on the processing

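No direction reversed among the values with a test, and the tumour to sham ratio in young microglia-like cells, which has none, lay between 0.925 (no doublet removal) and 1.19. Single-gene calls between positive and negative cells were rerun under each alternative. Where the gene was still tested, 794 were kept and 57 were no longer called. Reruns in which the gene dropped out of the test are in neither count, so more calls were lost than the 57. In microglia-like cells, genes higher in Mki67/Top2a-positive cells numbered 12, and 19 without doublet removal, 1 thinned to 1000 UMIs and 6 without the library block. They numbered 6 to 12 with 1 library left out. Genes lower numbered 1, and 0 thinned, with DESeq2 or without the block (each with 1 at an unadjusted p under 0.05), and 0 to 1 with a library left out. Over all gated classes the 39 higher became 18 thinned and the 1 lower became 0 (1 at an unadjusted p). In neuroblast-like cells the 13 higher became 23 without doublet removal, 6 thinned, 35 with no filter on low counts and 12 to 24 with a library left out. Over the classes, 114 higher became 54 and 69 lower became 38 thinned, and 122 were lower with DESeq2. Cells with a UMI of Tnf, Ccl4, Il1a or Atf3 are called cytokine-positive here, although Atf3 is on the dissociation-responsive list. In microglia-like cells the old to young ratio in sham became 0.393 thinned, 0.459 in cells without Tnf, Ccl4, Il1a or Atf3 UMIs, 0.389 centred on the median gene, 0.386 without Hist1h2bc, and 0.384 when mitochondrial and ribosomal protein genes were left out of the totals. In tumour that ratio became 0.833 thinned, 0.656 without the cytokine-positive cells and 0.880 centred. The tumour to sham ratio in young cells became 1.00 thinned, 1.19 without the cytokine-positive cells, 1.03 without Hist1h2bc and 0.962 with the reduced totals. In old cells it became 2.12 thinned, 1.70 without the cytokine-positive cells, 2.11 centred and 2.26 without Hist1h2bc. Histone UMIs per 10000 in library order were 16.1, 16.9, 9.58 and 13.9 without doublet removal, 16.8, 16.3, 8.91 and 12.9 thinned, and 18.5, 20.5, 10.5 and 14.5 with the reduced totals. A stricter cell filter gave 16.8, 17.6 and 13.03 in both young libraries and old tumour. The settings without the cytokine-positive cells and without Hist1h2bc, and the neuroblast-like test, were added after seeing the data. The causes of these shifts were not tested.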
